A study of Mus musculus with 12 samples.

Results

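The mitochondrially encoded genes were followed in left ventricles of mice that carried a dietary and drug-induced model of HFpEF (heart failure in which ejection fraction is preserved) and of mice that did not. The members were the rows of the estimated count table whose gene symbol starts with mt-, and 13 of the 29564 rows met this rule. All 13 code for proteins: 7 for complex I (mt-Nd1, mt-Nd2, mt-Nd3, mt-Nd4l, mt-Nd4, mt-Nd5 and mt-Nd6), 1 for complex III (mt-Cytb), 3 for complex IV (mt-Co1, mt-Co2 and mt-Co3) and 2 for complex V (mt-Atp6 and mt-Atp8). The 2 ribosomal RNAs and 22 transfer RNAs annotated on chromosome M were not analysed here.

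The study sequenced poly(A) RNA from 12 wild-type C57BL6 mice, 1 library per mouse and 4 per group. Control-Veh was the vehicle group without disease. HFpEF-Veh had a high-fat diet (HFD) with L-NAME, which blocks nitric oxide synthase, and vehicle dosing. HFpEF-TYA-018 shared the HFD and L-NAME, and was dosed orally with TYA-018, which inhibits HDAC6, at 15 mg/kg. The sample labels and the study's methods describe daily dosing over weeks, whereas the series title and the study's account of this experiment give a single dose. The study's account places the harvest hours after that dose, before any gain in heart structure or function. The methods give male C57BL/6J mice, and no age, cage or sequencing batch was given in the labels. The letters C, V and T with a number from 1 to 4 name the libraries of these groups in turn.

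Mitochondrial DNA is transcribed from both strands as long RNAs that span most of the circle, and the transfer RNAs between the genes mark where the RNAs are cut. Most of the resulting messenger RNAs receive short poly(A) tails. The protein of each messenger RNA is a subunit of a respiratory chain complex that also holds subunits made from nuclear genes. mt-Nd6 is the only protein gene read from the light strand. In the heart, a tissue dense in mitochondria, these transcripts are among the most abundant messenger RNAs.

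The nuclear genome carries copies of mitochondrial DNA, and the annotation lists several of them as pseudogenes that also have rows in the count table. There were 21 annotated nuclear genes that shared a run of 31 bases with a mitochondrial messenger RNA, 17 had a row and 15 of these held counts. A block on chromosome 1 of GRCm38, chr1:24611535-24616197, held 7 of the copies and 99.9% of the counts of all copies. The pseudogenes there are named by the gene they resemble in the sentences that follow, and their letters are given because they decide what each mt row can measure.

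mt-Nd3 (chrM:9459-9806, plus strand) was 348 bases long and its copy Gm28438 (chr1:24612775-24613119, minus strand) 345 bases. They differed by 1 substitution in the aligned part, T3C, counted from 1 at the first base of mt-Nd3, and by the stop codon, which the copy lacks. mt-Nd4l (chrM:9877-10173, plus strand) was 297 bases long, and its copy Gm10222 (chr1:24612407-24612700, minus strand) had the same letters over all of its 294 bases. The first 30 bases of Gm28438 and the last 30 bases of mt-Co3 show how little sets the other pairs apart. The first 300 bases of mt-Nd3 (chrM:9459-9758) and all of mt-Nd4l are given with them. Capitals mark bases that the partner does not have.
mt-Nd3: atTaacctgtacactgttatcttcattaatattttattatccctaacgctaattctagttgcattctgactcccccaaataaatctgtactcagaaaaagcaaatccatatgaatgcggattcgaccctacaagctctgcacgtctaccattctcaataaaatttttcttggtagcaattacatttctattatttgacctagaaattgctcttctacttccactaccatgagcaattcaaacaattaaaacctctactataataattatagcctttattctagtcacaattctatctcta
Gm28438: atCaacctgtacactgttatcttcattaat
mt-Nd4l: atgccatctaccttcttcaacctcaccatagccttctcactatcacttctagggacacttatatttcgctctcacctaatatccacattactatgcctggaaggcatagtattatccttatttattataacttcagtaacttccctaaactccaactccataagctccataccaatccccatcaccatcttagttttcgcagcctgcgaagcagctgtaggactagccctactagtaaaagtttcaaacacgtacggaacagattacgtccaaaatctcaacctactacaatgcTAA
mt-Co3: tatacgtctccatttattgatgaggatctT

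Longer genes had copies of the same kind. mt-Atp6 (chrM:7927-8607) and its copy Gm10925 had 0 substitutions over 678 bases, mt-Co2 (chrM:7013-7696) and Gm28661 had 0 over 681 bases, and mt-Co3 (chrM:8607-9390) and Gm28437 had 0 over 783 bases. Of all windows of 50 bases in the mt transcript, 100% of mt-Co2, 99.9% of mt-Co3, 99.5% of mt-Atp6, 98.8% of mt-Nd4l and 98.0% of mt-Nd3 were also found in a copy. The share was 62.2% for mt-Nd4 and 51.1% for mt-Co1, and 8.19% for mt-Nd2 and 7.61% for mt-Nd5. It was 0 for mt-Atp8, mt-Cytb, mt-Nd1 and mt-Nd6.

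Some genes also overlap within mitochondrial DNA. The reading frames of mt-Atp8 and mt-Atp6 share 43 bases (chrM:7927-7969) and lie on a single messenger RNA, and those of mt-Nd4l and mt-Nd4 share 7 bases (chrM:10167-10173) of another. The last 14 bases of mt-Nd5 and mt-Nd6 (chrM:13552-13565) overlap on opposite strands. The kit marks strand, but the strand setting of the counting is not given in the sources used here, so reads of mt-Nd6 and of RNA from the opposite strand may not have been told apart. The whole mt-Atp8 transcript (chrM:7766-7969) is shown with the part shared with mt-Atp6 in capitals, and the 3′ end of mt-Nd6 (chrM:13552-13581, minus strand) with the part that overlaps mt-Nd5 in capitals.
mt-Atp8: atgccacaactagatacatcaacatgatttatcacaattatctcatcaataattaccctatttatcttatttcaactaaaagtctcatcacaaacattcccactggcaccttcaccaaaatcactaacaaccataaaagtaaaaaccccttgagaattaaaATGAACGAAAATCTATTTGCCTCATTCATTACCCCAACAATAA
mt-Nd6: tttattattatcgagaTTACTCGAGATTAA

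Total estimated counts ranged from 61.2 M to 83.9 M per library, and T1 was the deepest. The 13 mt rows took 37.0% to 40.6% of the counts in Control-Veh, 43.1% to 47.7% in HFpEF-Veh and 35.4% to 41.2% in libraries of the TYA-018 group. Every HFpEF-Veh library therefore lay above every library of the other groups. The nuclear copies took a further 8.74% to 14% of the counts, with overlapping ranges in the 3 groups. Added together, mt rows and copies took 51.6% ± 0.564 (SD, n = 4) of the counts in Control-Veh libraries. This sum was 56.6% ± 1.83 in HFpEF-Veh, and 49.9% ± 3.72 was found in HFpEF-TYA-018. The HFpEF-Veh libraries again lay above all others, and the Control-Veh SD of 0.564 for the sum stood beside 1.58 for the mt rows alone. Within HFpEF-TYA-018 the sum ran from 45.1% in T1 to 53.9% in T4. As these are shares of the sequenced messenger RNA of bulk tissue, fewer cells of a type and less RNA per cell cannot be told apart, and a higher share of mt RNA and a lower amount of nuclear RNA cannot be told apart either. The libraries also differed in effective length, the length in bases that the quantification assigned to each gene in each library. Its median log2 value, relative to each gene's mean, was 0.0356 to 0.107 in HFpEF-Veh. In Control-Veh it was -0.0588 to 0.0140, and in HFpEF-TYA-018 -0.156 to 0.00636. T1 was lowest and V4 highest, as for the mt share. Its part in the mt share was not tested.

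**Figure D1:**
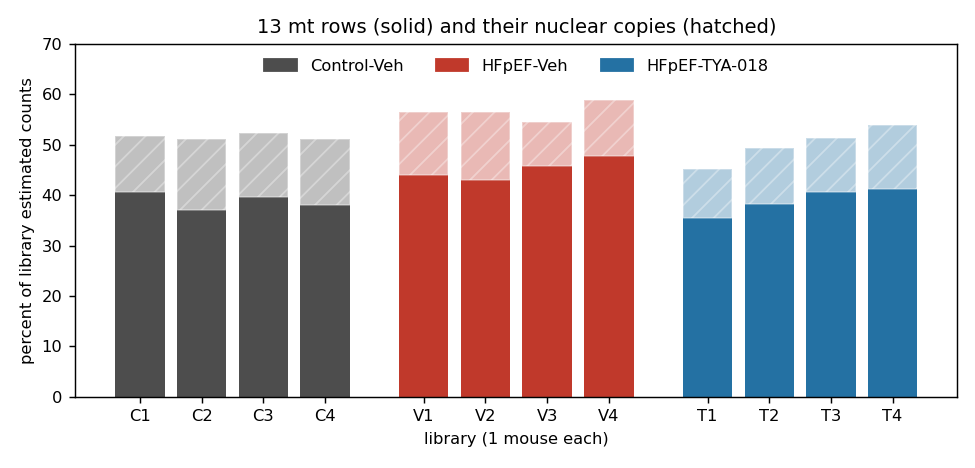
Percent of the estimated counts of each library (y axis) in the 13 mt rows (solid) and in their nuclear copies (hatched), for 4 mice per group (x axis). The full bars reach 54.4% to 58.9% in HFpEF-Veh, above the 51.0% to 52.3% of Control-Veh and the 45.1% to 53.9% of HFpEF-TYA-018.

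The assignment of reads between an mt row and its copies differed between libraries of the same group. The mt row held 10.1% to 11.6% of the counts of mt-Nd3 and its copy in Control-Veh, and 11.7% to 13.7% in HFpEF-TYA-018. In HFpEF-Veh it held 9.62% in V1, 11.9% in V2, 4.52% in V3 and 3.97% in V4. V3 and V4 therefore lay below all the other libraries. The share for mt-Nd4l was 12.4% to 16.3% in Control-Veh, 5.80% to 12.6% in HFpEF-Veh and 13.2% to 25.5% with TYA-018, with the highest value in T1. The mt-Atp6 row moved the other way in V3 and V4, where it held 90.7% and 81.8% of the counts of the pair, against 55.6% to 68.4% in the other 10 libraries. The mt row held 66.2% to 86.2% for mt-Co1, 41.9% to 57.2% for mt-Co2 and 52.5% to 69.4% for mt-Co3. mt-Nd4 has an extensive copy too, Gm28439, but this copy held 0 counts, so the mt-Nd4 row held 100% in all libraries. Genes with extensive copies are therefore given below both as the mt row and as the sum of the row and its copies where the results turn on them. The sum was added after the data had been seen.

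**Figure D2:**
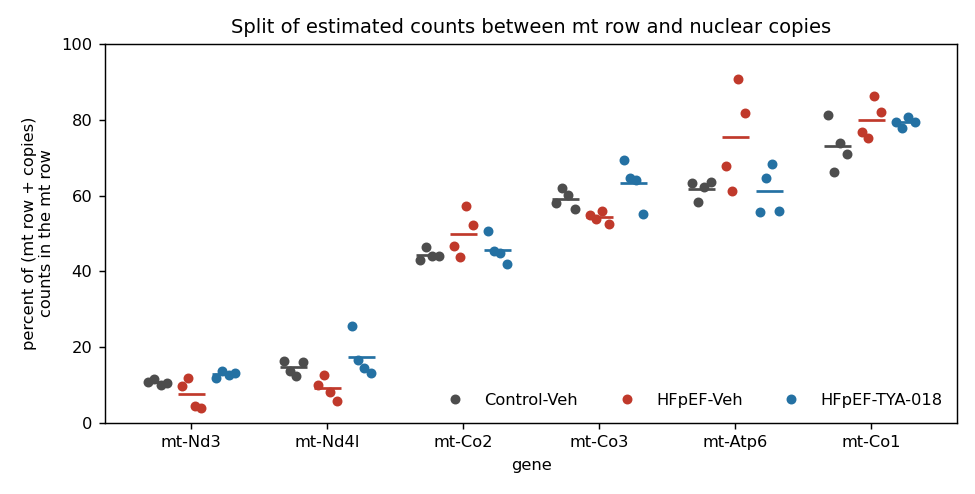
Percent of the estimated counts of an mt gene and its nuclear copies that were assigned to the mt row (y axis). The x axis shows the 6 genes with extensive copies that held counts. Points are libraries, lines are group means of 4 mice. In HFpEF-Veh the points of mt-Nd3 and mt-Atp6 fall into separate pairs, with V3 and V4 at 4.52% and 3.97% for mt-Nd3 and at 90.7% and 81.8% for mt-Atp6.

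Levels per kilobase of annotated transcript were used to compare genes with each other. With copies added, mt-Co1 had the highest mean level in each group, 86.3 ± 3.54 ‰ per kilobase, where ‰ stands for counts per 1000 counts of the library after TMM scaling (trimmed mean of M values) and CPM is 1000 times this value, in Control-Veh, with 109 ± 9.52 for HFpEF-Veh mice and 89.2 ± 12 for HFpEF-TYA-018 mice (SD, n = 4). In Control-Veh it was followed by mt-Co2, mt-Co3 and mt-Atp6, and these 4 genes did not separate beyond the spread between libraries. mt-Cytb came next at 43.3 ± 1.48, below every library of those 4 genes, and then mt-Nd1 and mt-Nd4, whose ranges overlapped. mt-Nd5 and mt-Nd4l lay near each other at 11.1 ± 1.80 and 10.8 ± 2.14. mt-Nd6 was the lowest, at 0.248 ± 0.0531 in Control-Veh, 0.219 ± 0.0347 in HFpEF-Veh and 0.265 ± 0.0818 with TYA-018. The libraries were made from poly(A) RNA, and how fully each RNA was captured was not measured, so these levels are not plain abundances. Of the 12 neighbouring pairs in this order, 6 overlapped in Control-Veh, 7 in HFpEF-Veh and 10 with TYA-018.

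Genes read from the same RNA did not have the same level per kilobase. The ratio of mt-Atp6 to mt-Atp8, copies added, was 2.39 to 3.64 in Control-Veh, 2.46 to 2.89 in HFpEF-Veh and 2.38 to 11.9 with TYA-018, where the highest value was that of T1. The ratio of mt-Nd4 to mt-Nd4l was 3.46 ± 0.703, 2.87 ± 0.339 and 3.06 ± 0.268 in the 3 groups when copies were added. With the mt-Nd4l row alone it was 24.2 ± 6.55, 33.3 ± 8.76 and 18.7 ± 5.18. The deposited effective length was 9 bases for mt-Atp8 and 48 bases for mt-Nd4l in all libraries. For mt-Nd6 it was 6346 to 9101 bases, above the annotated 519 bases. The study's methods list corrections for sequence, GC and position bias in the quantification, so this length is not a plain count of positions. TPM divide by this length, and mt-Atp8 alone took 5.67% to 26.7% of the summed TPM of a library, so TPM were not used to compare mt genes. The order of genes depends on the length chosen. Median TPM of the mt rows was 228387 for mt-Atp8 and 47080 for mt-Atp6, and 24756 for mt-Co1 and 69820 for mt-Cytb.

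In the comparison of HFpEF-Veh with Control-Veh, which asks what the diet and L-NAME changed, 4 of the 13 mt rows rose at an adjusted p under 0.05 in edgeR's quasi-likelihood test with Benjamini-Hochberg adjustment, namely mt-Co1, mt-Cytb, mt-Nd4 and mt-Nd5, and none fell. This was 30.8% of the members, beside 10.9% of the 14333 genes tested that were called higher. With copies added 5 rose, these 4 and mt-Nd4l, beside 10.9% of the 14320 genes tested then. The median log2 fold change of the 13 genes was 0.23 for the rows and 0.22 for the sums, against -0.01 for all genes in both cases. There were 6 members whose CPM did not overlap between the groups, all higher in HFpEF-Veh, for the rows and for the sums (46.2%, beside 23.5% of all genes tested). The count of called rows was 1 without any of C2, C3, C4, V1 or V4 and 2 without any of C1, V2 or V3, and for the sums it was 0 without C4 or V4. Over the 8 fits that each left out 1 library, the mt-Co1 row was called in 8, mt-Cytb in 1 and mt-Nd4 in 0. For the sums mt-Co1 was called in 6, mt-Nd4l in 3, mt-Cytb in 2, mt-Nd5 in 1 and mt-Nd4 in 0. The count of called rows was 6 in DESeq2, 2 when libraries were scaled by total count, and 0 with no filter on low counts, with effective lengths as an offset or with limma on log2(TPM + 1). The median log2 fold change of the 13 rows in the 3 fits with 0 calls was 0.23, 0.34 and 0.12, and 9, 10 and 8 rows had a higher estimate.

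Among the complex I genes, mt-Nd5 codes for a large subunit of the proton-pumping membrane arm. Its row stood at 24.2, 16.9, 21.6 and 18.3‰ in C1 to C4 and at 27.3, 30.0, 26.9 and 32.8‰ in V1 to V4. All HFpEF-Veh libraries were above all Control-Veh libraries, and the log2 fold change was 0.53 ± 0.16 (SE, adjusted p 0.0382). With copies added, mt-Nd5 was called in only 1 of the 8 fits that each left out 1 library. mt-Nd4, a neighbouring subunit of the same arm, stood at 47.9, 49.6, 52.8 and 49.7‰ in Control-Veh and 61.9, 62.3, 57.9 and 71.0‰ in HFpEF-Veh. Its groups did not overlap either, and the log2 fold change was 0.34 ± 0.11 (adjusted p 0.0467). mt-Nd2 did not pass the test at 0.44 ± 0.17 (adjusted p 0.0811), although its groups did not overlap, at 21.1 to 24.5 and 28.6 to 35.6‰. mt-Nd1, which has no copy in windows of 50 bases, was at 31.4 to 37.5 and 36.3 to 43.2‰ with a log2 fold change of 0.17 ± 0.09 (adjusted p 0.203).

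The result for mt-Nd4l, a small complex I subunit, depended on the copies. Its row had 0.647, 0.341, 0.425 and 0.474‰ in C1 to C4 and 0.404, 0.571, 0.393 and 0.341‰ in V1 to V4. The groups overlapped, with a log2 fold change of -0.14 ± 0.20 (adjusted p 0.659). With Gm10222 added the values were 3.97, 2.49, 3.44 and 2.95‰ in Control-Veh and 4.03, 4.52, 4.78 and 5.89‰ in HFpEF-Veh. All HFpEF-Veh libraries were then above all Control-Veh libraries, and the log2 fold change was 0.58 ± 0.17 (adjusted p 0.0306). mt-Nd3 went from -0.54 ± 0.37 for the row to -0.04 ± 0.20 for the sum (adjusted p 0.319 and 0.904).

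mt-Nd6 had 0.167, 0.119, 0.102 and 0.127‰ in C1 to C4 and 0.139, 0.10, 0.10 and 0.116‰ in V1 to V4. These ranges overlapped and the log2 fold change was -0.18 ± 0.20 (adjusted p 0.572). It and mt-Nd3 were the 2 members with a negative estimate once copies were added.

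mt-Cytb, the mitochondrially encoded subunit of complex III, had 47.0, 49.7, 50.4 and 50.8‰ in C1 to C4 and 56.3, 57.5, 53.3 and 63.6‰ in V1 to V4. The groups did not overlap, and the log2 fold change was 0.22 ± 0.07 (adjusted p 0.0463). This row shared no window of 50 bases with a copy.

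In complex IV, mt-Co1, the subunit that holds the oxygen reduction site, had 109, 86.9, 104 and 90.6‰ in C1 to C4 and 131, 121, 133 and 154‰ in V1 to V4. The groups did not overlap for the row or for the sum, and the log2 fold change was 0.47 ± 0.11 for the row (adjusted p 0.0133) and 0.34 ± 0.09 for the sum (adjusted p 0.0232). The other 2 mitochondrial subunits of the complex did not pass the test. mt-Co2 was at 0.23 ± 0.11 for the row and 0.06 ± 0.09 for the sum, and mt-Co3 at -0.06 ± 0.10 for the row and 0.07 ± 0.10 for the sum, on the log2 scale.

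In complex V, the ATP synthase, the row of mt-Atp6 had a log2 fold change of 0.44 ± 0.15 that missed the threshold (adjusted p 0.0587), and its HFpEF-Veh values were 42.0, 37.1, 50.1 and 55.2‰ against 30.9 to 35.9 in Control-Veh. The 2 highest were V3 and V4, the libraries in which the row took most of the counts of the pair. With Gm10925 added the values were 48.9 to 59.7 and 55.2 to 67.5‰, and the log2 fold change was 0.15 ± 0.11 (adjusted p 0.35). mt-Atp8 was at 0.29 ± 0.40 (adjusted p 0.650).

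**Figure D3:**
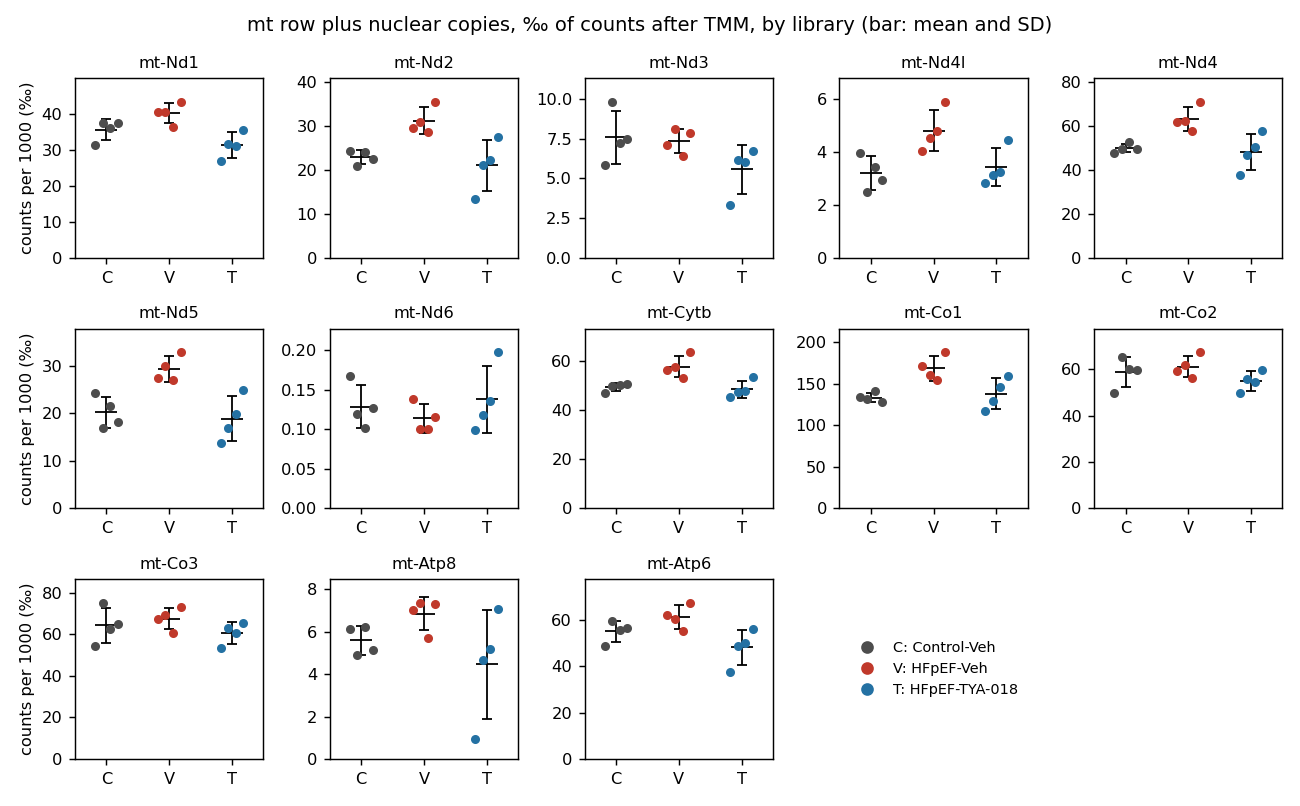
Counts per 1000 counts of the library after TMM (‰, y axis from 0) of each mt gene with its nuclear copies added, by group (x axis: C, Control-Veh; V, HFpEF-Veh; T, HFpEF-TYA-018). Points are the 4 libraries of a group and black bars the mean and SD. HFpEF-Veh lies above both other groups without overlap for mt-Nd2, mt-Nd4 and mt-Nd5, and T1 is the lowest library for mt-Atp8, at 0.949‰.

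The next comparison asked what the inhibitor changed in the model, by setting HFpEF-TYA-018 against the vehicle group HFpEF-Veh. It used the same HFpEF-Veh libraries as the comparison above, so the values of both are set side by side and are not independent. In HFpEF-TYA-018, 6 of the 13 mt rows fell, mt-Atp6, mt-Cytb, mt-Nd1, mt-Nd2, mt-Nd4 and mt-Nd5, and none rose (46.2%, beside 10.4% of all genes tested that were called lower). With copies added 7 fell, these 6 and mt-Co1 (53.8%, beside 10.4%). The median log2 fold change of the 13 genes was -0.30 for the rows and -0.36 for the sums, against 0.00 for all genes. CPM did not overlap for 6 rows and for 4 sums, all lower in HFpEF-TYA-018 (46.2% and 30.8%, beside 25.1% of all genes tested). The count of called rows was 1 without V4, 2 without T1 or T2, and 3 without V1 or V2, and for the sums it was 1 without T1, T2 or V4, 3 without T3, and 4 without V1 or V2. For the sums, mt-Nd1 was called in 7 of these 8 fits, mt-Nd4 and mt-Nd5 in 5, mt-Cytb in 4, and mt-Atp6, mt-Co1 and mt-Nd2 in 2. The count of called rows was 8 in DESeq2, 1 with no filter on low counts or with limma, and 0 with the globin share as a covariate. The median log2 fold change of the 13 rows was -0.30 with no filter and -0.09 with limma on log2(TPM + 1). With the globin covariate it was -0.39, with 9 rows lower and 8 at an unadjusted p under 0.05. The globin share did not overlap between these groups, so this fit cannot separate the share from the group.

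mt-Nd5 had 13.7, 17.0, 19.8 and 24.8‰ in T1 to T4. Each value was below the lowest HFpEF-Veh library, and the log2 fold change was -0.64 ± 0.16 (adjusted p 0.0203). mt-Nd2 had 13.4, 21.2, 22.3 and 27.5‰, also below every HFpEF-Veh library, with a log2 fold change of -0.56 ± 0.17 (adjusted p 0.0344). mt-Nd4 was at 37.8, 47.0, 50.3 and 57.6‰ and -0.39 ± 0.11 (adjusted p 0.0285). T1 was the lowest and T4 the highest library of the group for these 3 genes. mt-Nd1 had 26.9, 31.7, 31 and 35.5‰ and -0.36 ± 0.09 (adjusted p 0.0198).

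The row of mt-Nd4l was higher in HFpEF-TYA-018, at 0.468 to 0.721‰ and a log2 fold change of 0.43 ± 0.21 that did not pass the test (adjusted p 0.165). The sum was lower, at 2.83 to 4.46‰ and -0.49 ± 0.17, and did not pass it either (adjusted p 0.0620). mt-Nd3 had the same turn, from 0.36 ± 0.37 for the row to -0.40 ± 0.20 for the sum (adjusted p 0.537 and 0.183). mt-Nd6 had 0.0992, 0.118, 0.136 and 0.197‰ in T1 to T4, and its estimate was 0.27 ± 0.20 (adjusted p 0.374). It was the only gene of the 13 with a positive estimate after copies were added.

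mt-Cytb fell to 45.6, 47.4, 47.8 and 53.7‰ in T1 to T4, with a log2 fold change of -0.25 ± 0.07 (adjusted p 0.0326). T4 lay within the HFpEF-Veh range of 53.3 to 63.6. mt-Co1 was at 92.8, 101, 117 and 126‰, and its log2 fold change was -0.30 ± 0.11 for the row (adjusted p 0.0811) and -0.29 ± 0.09 for the sum (adjusted p 0.0456). The row of mt-Atp6 fell by 0.64 ± 0.15 on the log2 scale (adjusted p 0.0138) and the sum by 0.35 ± 0.11 (adjusted p 0.0459). mt-Co2, mt-Co3 and mt-Atp8 did not pass the test in either form. For mt-Co2 the log2 fold change was -0.29 ± 0.11 for the row (adjusted p 0.0785) and -0.16 ± 0.09 for the sum (adjusted p 0.242). For mt-Co3 it was 0.06 ± 0.10 for the row (adjusted p 0.708) and -0.15 ± 0.10 for the sum (adjusted p 0.301). mt-Atp8 had 0.949‰ in T1 against 4.68, 5.18 and 7.09 in T2 to T4.

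**Figure D4:**
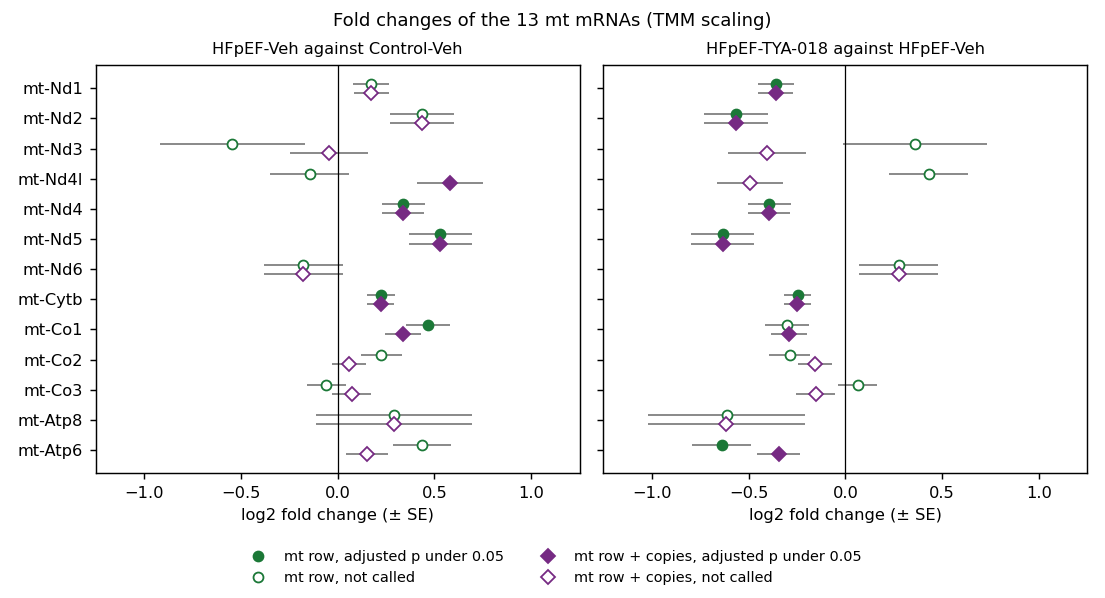
Log2 fold change with SE (x axis) of the 13 mt mRNAs (y axis) in HFpEF-Veh against Control-Veh (left) and HFpEF-TYA-018 against HFpEF-Veh (right). Circles are mt rows, diamonds are rows with nuclear copies added, and filled symbols passed an adjusted p under 0.05. Adding copies moves mt-Nd4l from -0.14 to 0.58 on the left and from 0.43 to -0.49 on the right.

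HFpEF-TYA-018 did not differ detectably from Control-Veh in any mt mRNA. The log2 fold changes ran from -0.32 to 0.29 for the rows and from -0.45 to 0.10 for the sums, and 0 of 13 were called in edgeR (5.86% of all genes tested were, and 5.82% with copies added). At an unadjusted p under 0.05 there were 0 rows and 1 sum, beside 3219 of 14333 genes tested and 3216 of 14320 with copies added. DESeq2 called 0 rows as well. No member had CPM that did not overlap between these groups (14.8% of all genes tested did).

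The members were also compared with one another by taking the summed counts of the 13 mt mRNAs as the library size, so that a change is read relative to the mitochondrial pool. Relative to it the median of all genes tested was -0.33 in HFpEF-Veh against Control-Veh and 0.36 in HFpEF-TYA-018 against HFpEF-Veh. The adjustment ran over all genes tested, so the adjusted p of a member also depended on these shifts of nuclear genes. In HFpEF-Veh against Control-Veh the rows of mt-Co3 and mt-Nd6 fell within the pool (36.5% of all genes tested were called lower). No row was called without C2, V3 or V4, and 1 was without C4 and 4 without C1. mt-Nd6 made up 0.0339% ± 0.00786 of the pool in Control-Veh and 0.0239% ± 0.00405 in HFpEF-Veh, a log2 fold change of -0.50 (adjusted p 0.0375). mt-Co3 made up 10.0% ± 1.64 and 7.69% ± 0.498, a log2 fold change of -0.38 (adjusted p 0.0240). The unadjusted p of the quasi-likelihood test was 0.0128 for mt-Nd6 and 0.00658 for mt-Co3. With copies added neither passed the test, at -0.43 for mt-Nd6 (adjusted p 0.0901) and -0.17 for mt-Co3 (adjusted p 0.0877), and mt-Co2 was called at -0.18 (adjusted p 0.0490, beside 20.7% of all genes tested that were called lower).

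In HFpEF-TYA-018 against HFpEF-Veh, the rows of mt-Nd6, mt-Co3 and mt-Nd4l rose within the pool and those of mt-Atp6 and mt-Nd5 fell (39.8% of all genes tested were called higher and 1.52% lower). The 5 calls became 1 without V4 and 2 without V3 or T1. The calls held with copies added for mt-Nd6 and mt-Nd5 (33.7% of all genes tested were called higher and 1.53% lower). mt-Nd6 rose by 0.56 on the log2 scale in that form (adjusted p 0.0271), from 0.0190% ± 0.00292 to 0.0281% ± 0.00500 of the pool. mt-Nd5 fell by 0.34 (adjusted p 0.0392), from 4.88% ± 0.193 to 3.85% ± 0.461. With copies added, the unadjusted p of the quasi-likelihood test was 0.00706 for mt-Nd6 and 0.0124 for mt-Nd5. mt-Co1, the largest member of the pool, made up 26.4% ± 1.37, 28.1% ± 0.730 and 28.5% ± 0.917 of the pool in the 3 groups in the order control, HFpEF and treated HFpEF, copies added. In HFpEF-TYA-018 against Control-Veh no row was called relative to the pool (0.705% of all genes tested were, and 0.517% with copies added). At an unadjusted p under 0.05 there were 2 rows and 4 sums, beside 1902 of 14333 genes tested and 2083 of 14320 with copies added, and DESeq2 called 0 rows.

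Nuclear genes supply the other subunits of the same complexes. Of 77 such genes tested, 74 had a lower estimate in HFpEF-Veh than in Control-Veh and 14 were called lower (10.3% of all genes tested were), with a median log2 fold change of -0.28. In HFpEF-TYA-018 against HFpEF-Veh 73 had a higher estimate and 28 were called higher (8.93% of all genes tested were), with a median of 0.29. Beside these counts, 11 of the 13 mt mRNAs with copies added had a higher estimate in the first comparison and 12 a lower one in the second. By complex, the median of the nuclear subunits in HFpEF-Veh against Control-Veh was -0.26 for complex I, -0.24 for complex III, -0.31 for complex IV and -0.29 for complex V. The ratio of mt counts, copies included, to the counts of the nuclear subunits was 10.6 to 16.5 in Control-Veh, 18.8 to 22.1 in HFpEF-Veh and 8.60 to 15.3 with TYA-018 for complex I. For complex IV it was 25.3 to 38.0, 40.7 to 48.8 and 26.6 to 36.9. For all 4 complexes each HFpEF-Veh library had a higher ratio than all libraries of both other groups. The 14 calls of nuclear subunits became 60 without C1, 4 without C2 or V3, 7 without C3, and 6 without C4, V1 or V4, and the 28 calls became 14 without T1 or T2, 17 without V1 or V3, and 18 without V4. With limma on log2(TPM + 1) the counts were 0 and 15, with effective lengths as an offset 1 and 8, and with the globin covariate 0 and 0.

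**Figure D5:**
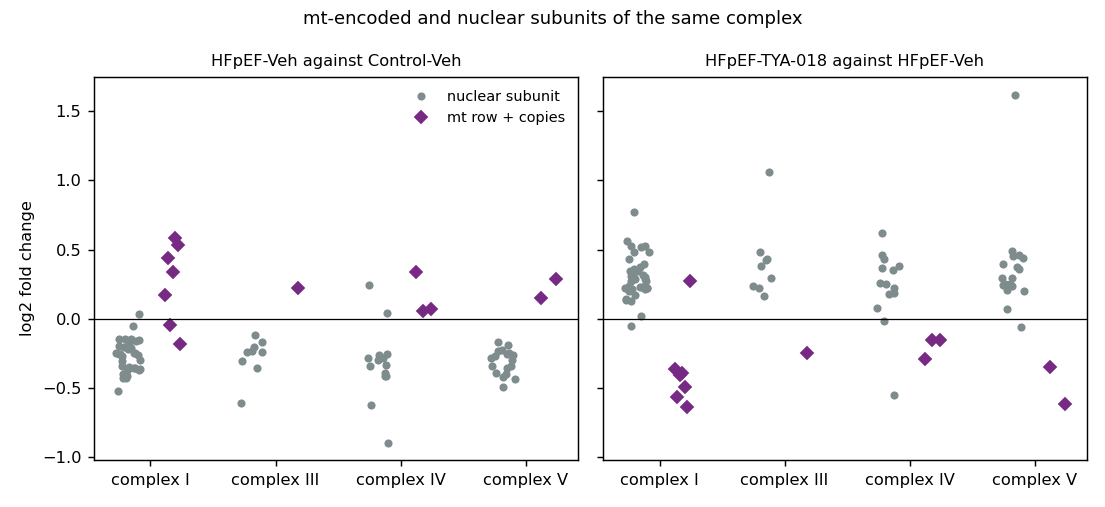
Log2 fold change (y axis) of nuclear subunits (grey points, 77 genes) and of mt genes with copies added (diamonds) by respiratory complex (x axis), in HFpEF-Veh against Control-Veh (left) and HFpEF-TYA-018 against HFpEF-Veh (right). Most grey points lie below 0 on the left and above 0 on the right, and most diamonds do the opposite.

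The genes that replicate, transcribe, process and translate mitochondrial genomes are nuclear too, and 85 of them were tested in 4 lists. In HFpEF-Veh against Control-Veh 16 were called lower and 1 higher (10.3% and 10.9% of all genes tested), with a median log2 fold change of -0.14. In HFpEF-TYA-018 against HFpEF-Veh 25 were called higher and 0 lower (8.93% and 10.4% of all genes tested), with a median of 0.20. HFpEF-TYA-018 against Control-Veh had 3 called higher and 0 lower (3.12% of all genes tested were called higher). The 17 calls of the first comparison became 8 without C2 or V4, 9 without C3 or C4, and 10 without V2, and the 25 calls of the second became 14 without T1. The 3 calls against Control-Veh became 0 without T1 or T2, and 1 without T3 or C4. With limma on log2(TPM + 1) the counts of the first and second comparison were 0 and 13, with effective lengths as an offset 2 and 9, and with the globin covariate 0 and 0.

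Among factors of transcription, Polrmt, the mitochondrial RNA polymerase, had 22.6 to 26.6 CPM in Control-Veh, 20.3 to 23.4 in HFpEF-Veh and 24.1 to 25.4 with TYA-018. It fell by 0.22 ± 0.06 on the log2 scale in HFpEF-Veh (adjusted p 0.0283) and rose by 0.20 ± 0.06 in HFpEF-TYA-018 against HFpEF-Veh (adjusted p 0.0401). Tfam, which packages mitochondrial DNA and activates its promoters, was at -0.09 ± 0.07 in the first comparison (adjusted p 0.404) and rose by 0.30 ± 0.07 in the second (adjusted p 0.0158). The helicase Twnk, listed under its older symbol Peo1, did not pass the test in either, at -0.19 ± 0.09 and 0.25 ± 0.09.

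Among factors of RNA stability, Lrpprc, which binds and protects mitochondrial messenger RNAs, was at -0.19 ± 0.08 in HFpEF-Veh against Control-Veh (adjusted p 0.132) and rose by 0.36 ± 0.08 in HFpEF-TYA-018 against HFpEF-Veh (adjusted p 0.0135). Its partner Slirp did not pass the test, at -0.12 ± 0.14 and 0.16 ± 0.14. The only gene of the 4 lists called higher in HFpEF-Veh was Pde12, which removes poly(A) tails from mitochondrial RNA, at 4.47 to 5.89 CPM in Control-Veh and 6.31 to 6.91 CPM in HFpEF-Veh (0.38 ± 0.10, adjusted p 0.0253). Mtpap, the mitochondrial poly(A) polymerase, was at 0 in 9 of 12 libraries but reached an estimated count of 557, and it was not tested.

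Among RNA modifying and processing factors, Rpusd4, a pseudouridine synthase, had 7.55 to 7.95 CPM in Control-Veh, 4.89 to 5.90 in HFpEF-Veh and 7.37 to 8.83 with TYA-018. It fell by 0.55 ± 0.08 in HFpEF-Veh (adjusted p 0.00144) and rose by 0.56 ± 0.08 in HFpEF-TYA-018 against HFpEF-Veh (adjusted p 0.00176). Hsd17b10, a subunit of the enzyme that cuts the 5′ ends of transfer RNAs, and Pusl1 fell in HFpEF-Veh by 0.54 ± 0.11 and 0.62 ± 0.13. Nsun4, a methyltransferase of the small ribosomal RNA, and the translation factor Tsfm rose by 0.33 ± 0.05 and 0.55 ± 0.08 in HFpEF-TYA-018 against HFpEF-Veh. They and Trmt5 were the 3 called higher against Control-Veh.

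Markers of several cell types moved with the same comparison. The 8 ventricular muscle markers summed to 27485 to 38566 CPM in Control-Veh, 25481 to 27070 in HFpEF-Veh and 29087 to 31995 with TYA-018, and 6 of 8 were called lower and 1 higher in HFpEF-Veh (10.3% of all genes tested were called lower and 10.9% higher). The 8 red cell markers were all called higher in HFpEF-Veh, with sums of 1557 to 2312 CPM in Control-Veh, 4799 to 14188 in HFpEF-Veh and 2302 to 3580 with TYA-018. The 6 fibroblast markers summed to 411 to 616, 608 to 862 and 398 to 586 CPM, and 3 were called higher in HFpEF-Veh. Of the 5 macrophage and leukocyte markers 4 were called higher, and of the 5 endothelial markers 2. Of the 5 smooth muscle and pericyte markers 1 was called higher, at a median log2 fold change of 0.05. Of 4 atrial muscle markers tested 1 was called lower, and of 2 fat markers tested 0 were called. The part of these markers in the mt results was not tested. Globin counts stand for red cells only. Their share was 0.154% to 0.240% in Control-Veh, 0.420% to 1.32% in HFpEF-Veh and 0.255% to 0.341% in HFpEF-TYA-018. HFpEF-Veh did not overlap the other groups, so a fit with this share as a covariate cannot separate it from the group. That fit called 0 mt rows in HFpEF-Veh against Control-Veh and 3 genes in all. In that fit the median log2 fold change of the 13 rows was 0.35, with 10 higher and 3 lower, against 0.23 without the covariate. At an unadjusted p under 0.05 in the quasi-likelihood test there were 2 rows in that fit and 6 without the covariate.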

How the data were processed

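Poly(A) RNA of left ventricle was sequenced in 12 libraries. The authors trimmed reads with fastp, quantified them with Salmon 1.6.0 (version per the labels) against GENCODE transcripts of GRCm38 and summarised them per gene with tximport. The first deposited table held estimated counts, not normalised, the deposited TPM table held TPM values scaled by transcript length, and the third deposited table held effective lengths in bases. The labels name a human genome build, against the methods and the mouse symbols in the tables. The labels and the methods differ on read length and layout. The study left mitochondrial genes out of its own tests. All columns were used (0 were left out).

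After rounding, a single edgeR 4.0.16 quasi-likelihood model (R 4.3.3, TMM scaling) covered all 12 libraries with 9 residual degrees of freedom. filterByExpr left 14333 genes with 99.98% of counts, and the common dispersion corresponded to a coefficient of variation of 0.232. Tests were two-sided, and calls needed p under 0.05 after Benjamini-Hochberg adjustment across every gene. DESeq2 1.42.0 and limma 3.58.1 on log2(TPM + 1) or log2(TPM + 0.1) were alternatives. Each library is labelled with its own mouse, and p-values measure the spread between these mice. Shares of counts are given with no test.

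Nuclear copies were genes whose GENCODE M21 transcript (GRCm38) shared 31 bases with an mt mRNA, and sequences were read from those transcripts. Copies were aligned with a match score of 1, a mismatch score of -2 and a gap score of -4. Salmon divides reads that fit several transcripts, so the split between a gene and an identical copy is an estimate.

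Genes named are the 13 mt mRNAs, 6 fixed nuclear factors (Tfam, Polrmt, Twnk, Lrpprc, Slirp, Mtpap) and, in each comparison, the 3 genes of the 4 mitochondrial gene expression lists with the smallest adjusted p called in each direction. There were 8 list genes found under older symbols through the RefSeq gene table. The members and lists were chosen with earlier results of these data known. On counts simulated for HFpEF-Veh against Control-Veh (14100 genes after filtering), 49% of 100 genes changed by 1.5-fold and 66% of 100 changed by 2-fold were recovered. Of 12 mt mRNAs raised 1.3-fold 0 were called, at a median log2 estimate of 0.51. Only these genes were changed in the simulation, whereas 3033 genes were called in the data. Adjustment was therefore stricter in the simulation, and its recovery does not give the sensitivity of the real comparison. In the data the mt-Cytb row was called at 1.17-fold and the mt-Nd2 row was not called at 1.35-fold, so changes of that size can be missed. Python 3.11.15 was used for the sequence comparison and figures.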

Additional observations from a re-analysis of the deposited data

Results flagged for a closer look

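In HFpEF-Veh, V1 stood apart from the other 3 libraries in the share of the mitochondrial pool held by mt-Nd6, 0.0300% against about 0.022% in each of V2 to V4. The gap to the nearest library was 0.933 of the range of the group. Such gaps arise in about 1 in 20 groups of 4 by chance, and 132 groups were examined, of which this was the only one past Dixon's limit.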

How the results depend on the processing

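Each edgeR alternative changed 1 choice, except copies added with TMM without mt genes, which combined 2. DESeq2 changed the test, the dispersion model and, outside the pool fit, the scaling together, and it left some genes without an adjusted p. The limma fits changed test, unit, scaling and filter together (20679 genes tested), and limma without mt-Atp8 also left out that gene. Adding nuclear copies to each gene and limma without mt-Atp8 were chosen after seeing the data, and a total without the 2 mt rRNAs was not run because no such row was analysed. No paired analysis was possible because the labels give each mouse a number of its own. Of 518 values of single mt genes under alternatives 23 reversed, and of 480 values of named nuclear genes 10 reversed, 74 lost and 14 gained a call. Over all single-gene values, mt and nuclear and with those relative to the pool, 212 lost and 27 gained a call. The cause of these changes was not tested.

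In HFpEF-Veh against Control-Veh, the 4 called mt mRNAs became 2 with total count scaling and 0 with no filter, with effective lengths as an offset, with limma at either pseudocount, with limma without mt-Atp8, and with the globin covariate, where 3 of all genes were called. The 17 called genes of mitochondrial gene expression became 27 with total counts, 9 with the total of nuclear genes, 2 with effective lengths, 4 with limma without mt-Atp8, and 0 with limma or the globin covariate. The 14 called nuclear subunits became 47 with total counts, 34 in DESeq2, 9 with no filter, 1 with effective lengths, 7 with limma without mt-Atp8, and 0 with limma or the globin covariate. The 2 called relative to the pool became 0 with the geometric mean, and 1 with effective lengths, with no filter or with copies added. Estimates turned for mt-Co3 to 0.031 (effective lengths), 0.00876 (globin) and 0.072 (copies, with or without mt genes in TMM), for mt-Nd4l to 0.58 (copies, both forms), for Tfam to 0.10 (effective lengths), for mt-Nd1 to -0.14 (limma, both pseudocounts) and -0.12 (without mt-Atp8), for mt-Co2 within the pool to 0.070 (geometric mean), and with the globin covariate for Peo1 to 0.038, Trmt5 to 0.31, Slirp to 0.23 and Tsfm to 0.00279.

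In HFpEF-TYA-018 against HFpEF-Veh, the 6 called mt mRNAs became 1 with no filter, limma at either pseudocount or limma without mt-Atp8, and 0 with the globin covariate, where 8 of all genes were called. The 25 called genes of mitochondrial gene expression became 41 with total counts, 15 with the nuclear total, 9 with effective lengths, 13 with limma on log2(TPM + 1) and 0 with the globin covariate. The 28 called nuclear subunits became 54, 8, 15 and 0 with total counts, effective lengths, limma on log2(TPM + 1) and the globin covariate, and 47 with limma without mt-Atp8. The 5 called relative to the pool became 2 with the geometric mean, no filter or copies added. Estimates turned for mt-Co3 to -0.079 (effective lengths) and -0.15 (copies, both forms), for mt-Nd3 to -0.40 and for mt-Nd4l to -0.49 (copies, both forms), for mt-Nd4l within the pool to -0.19 (copies), for mt-Co1 to 0.23 (limma, both pseudocounts) and 0.14 (without mt-Atp8), for mt-Co2 to 0.020 (limma, both pseudocounts), for Pde12 to 0.052, 0.17 and 0.038 (the 3 limma fits) and for Slirp to -0.082 (globin).

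In HFpEF-TYA-018 against Control-Veh, the 3 called genes of mitochondrial gene expression became 8 in DESeq2, 1 with effective lengths and 0 in the 3 limma fits. The 2 called nuclear subunits became 7 in DESeq2, 1 with total counts, no filter or the globin covariate, and 0 with effective lengths or the 3 limma fits. The difference in the mt share of the library was 0.0162 points for counts and -2.30 points for TPM.

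With each library left out in turn, mt mRNAs called were 1 to 2 in HFpEF-Veh against Control-Veh and 1 to 7 in HFpEF-TYA-018 against HFpEF-Veh, and relative to the pool 0 to 4 and 1 to 5. Called genes of mitochondrial gene expression were 8 to 23 and 14 to 25 in these comparisons and 0 to 4 in HFpEF-TYA-018 against Control-Veh, and called nuclear subunits 4 to 60, 14 to 27 and 1 to 5. Estimates in HFpEF-Veh against Control-Veh ran from -0.31 to 0.047 for mt-Nd4l, from -0.14 to 0.055 for mt-Co3 and from -0.23 to 0.028 for Slirp.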
